A study of Rattus norvegicus with 20 samples.

Results

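Astrocyte markers were measured in neurons that had been cut out of rat cortex by laser, as 10 genes: Gfap, Vim, Aqp4, Gja1, Slc1a2, Slc1a3, Slc7a10, Aldoc, S100b and Fgfr3. They were found by the gene symbol that the array gives each probe, which matched 14 probes, all of them among the 34231 probes tested, and they are 10 of 13551 named genes there. The rats were 2 years old and had a stroke, and cholera toxin B carrying a fluorescent dye was placed beside the infarct, followed later by a second dye at the same spot. The later dye was given after 7 days in one cohort of 5 rats and after 21 days in a separate cohort of 5, and capture of about 300 neurons of each type followed 7 days after it. Each rat gave 1 pool of neurons labelled sprouting and 1 labelled non-sprouting, so that all comparisons lie within stroked, traced, aged animals, and no unstroked or young group was analysed here. The captured RNA went through 2 rounds of amplification, and both pools of a rat shared an Agilent array, once with sprouting neurons in Cy5 (the forward array) and once in Cy3 (the dye-swap array). Those 2 arrays carry the same RNA, so each animal is 1 replicate and n is 5 per day.

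Astrocytes take up glutamate and potassium from around neurons, are coupled to each other by gap junctions, wrap blood vessels with their endfeet and supply neurons with metabolites and serine. After a stroke, astrocytes near the infarct become reactive and raise their intermediate filaments, Gfap and vimentin. Cortical neurons are not the usual source of most of these transcripts, although single members are also made by other cells: vimentin by endothelial cells, macrophages and activated microglia, S100b by some oligodendrocyte-lineage cells, and Slc1a2 and Slc7a10 at low levels by neurons. In pooled captures like these, fewer cells of a type and less RNA per cell cannot be told apart.

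The probes' own sequences were not used here, and the genes are shown by their RefSeq promoters. All 10 genes matched a promoter entry (build GRCr8), 7 of them with 1 entry each. The 250 bases before the start site are shown for Gfap and Vim, whose ratios spread most between animals on day 7, and for Gja1, whose day 21 ratio had the smallest p-value of the members. Capitals mark, on either strand, the TATA box TATAAA, the AP-1 motif TGANTCA, the STAT motif TTCNNNGAA, the GC box motif GGGCGG and the box named CCAAT, and none of the matches overlapped another in these 3 windows.
Gfap, chr10:88361662-88361911, minus strand: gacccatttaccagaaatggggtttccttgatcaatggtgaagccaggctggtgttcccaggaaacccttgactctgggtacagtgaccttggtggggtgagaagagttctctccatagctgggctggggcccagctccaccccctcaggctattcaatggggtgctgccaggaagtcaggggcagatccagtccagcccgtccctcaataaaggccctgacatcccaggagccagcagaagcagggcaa
Vim, chr17:81577011-81577260, plus strand: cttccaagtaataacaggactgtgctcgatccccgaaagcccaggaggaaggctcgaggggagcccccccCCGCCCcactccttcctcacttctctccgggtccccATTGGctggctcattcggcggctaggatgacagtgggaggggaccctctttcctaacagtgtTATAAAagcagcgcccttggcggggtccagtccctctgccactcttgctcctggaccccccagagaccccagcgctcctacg
Gja1, chr20:36302314-36302563, plus strand: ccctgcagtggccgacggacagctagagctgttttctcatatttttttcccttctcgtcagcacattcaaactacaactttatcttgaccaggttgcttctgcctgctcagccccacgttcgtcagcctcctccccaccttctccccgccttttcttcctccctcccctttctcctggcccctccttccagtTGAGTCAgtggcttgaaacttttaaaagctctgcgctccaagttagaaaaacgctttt
The Gfap window held none of these motifs, the Vim window held the TATA, GC box and CCAAT letters once each, and the Gja1 window held TGANTCA, 58 bases before the start. Among 33469 promoter windows of the same length, TATAAA was in 12.9%, TGANTCA in 6.34%, TTCNNNGAA in 7.67%, GGGCGG in 30.5% and CCAAT in 34.0%. GGGCGG was present in 5 of the 10 members and CCAAT in 4, in at least 1 entry each, and TTCNNNGAA in 0. A match is a description of the letters and not evidence of a bound factor.

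Signal of the astrocyte genes was detected in the captured pools of both cell types on both days. Values below are of 2 kinds: a ratio, the log2 of sprouting over non-sprouting signal within an animal, and a level, the log2 intensity of 1 cell type after normalization, which is comparable between samples of 1 probe but not between probes. Each probe had 40 readings, from 2 channels on 20 arrays, and a reading counts as detected where the scanner software set it well above background. Aldoc, both Slc1a3 probes, 1 Gja1 probe and 1 Slc7a10 probe were detected in 40 of 40 readings. The fewest were 25 of 40 for the other Gja1 probe, 29 of 40 for Aqp4 and 32 of 40 for Fgfr3. Over all probes, 20.6% to 95.4% were well above background in a channel of an array, and 34231 of 41012 were kept for testing. No member spot was saturated. The neuron markers were well above background as well: of 20 tested genes none went undetected, and 11 were detected in all 40 readings.

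Some libraries stood apart. The forward array of day 7 animal 2 had 1913 outlier spots and 51.4% of probes well above background in Cy3, its non-sprouting channel. Its ratios correlated with those of the dye-swap array of that animal at r = 0.80 over all tested probes. On the dye-swap array of day 21 animal 4, 20.6% of probes were well above background in Cy3 and 4088 spots were set missing as outliers, and its ratios correlated with those of the animal's forward array at r = 0.046 over all tested probes (0.32 to 0.89 in the other animals). On the day 21 dye-swap arrays, where sprouting RNA was in Cy3, 49 of 70 member readings of sprouting neurons were detected, against 65 of 70 on the forward arrays and 68 of 70 for non-sprouting neurons on the same swaps. Over all probes, Cy3 of these swaps had 80.7%, 56.7%, 35.6%, 20.6% and 83.3% well above background in animals 1 to 5. Their Cy5 channels had 69.7% to 87.6%. Day 7 animals 1 and 2 and day 21 animals 4 and 5 had the widest spread of ratios over all tested probes, with SDs of 0.24 to 0.37 against 0.13 to 0.17 in the other 6. Ratios of different animals hardly resembled each other across probes (median r of 0.13 on day 7 and 0.051 on day 21). The forward and dye-swap ratios of a member had the same sign in 99 of 137 cases with both values.

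No member differed between sprouting and non-sprouting neurons on either day after adjustment over all probes. With limma and Benjamini-Hochberg adjustment at 0.05, 0 of the 14 probes were called on day 7, on day 21 or in the difference between the days, and the background was 0% of 34231 probes in each. The members' adjusted p-values ran from 0.811 to 0.999 on day 7, from 0.917 to 0.991 on day 21 and from 0.921 to 0.993 for the difference. At an unadjusted p under 0.05 there was 1 member probe on day 7 (Fgfr3, background 6.11%), 2 on day 21 (Gja1 and Slc7a10, background 4.75%) and 1 for the difference (Gja1, background 4.13%). One probe was above 0 in 5 of 5 animals on day 7 (Fgfr3, background 5.15%) and 2 on day 21 (1 probe each of Gja1 and Slc1a2, background 2.87%). None was below 0 in all 5, for which the background was 5.99% on day 7 and 3.39% on day 21. Over the 14 probes the mean ratios ran from -0.13 to 0.29 on day 7, with a median of -0.0042 and 7 above 0. On day 21 they ran from -0.15 to 0.27, with a median of 0.045 and 9 above 0, while over all tested probes 49.8% were above 0 and the median was -0.00022. Leaving out both widest animals of each day, chosen after the data were seen, put the day 21 median at 0.0031 with 7 above 0.

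**Figure D1:**
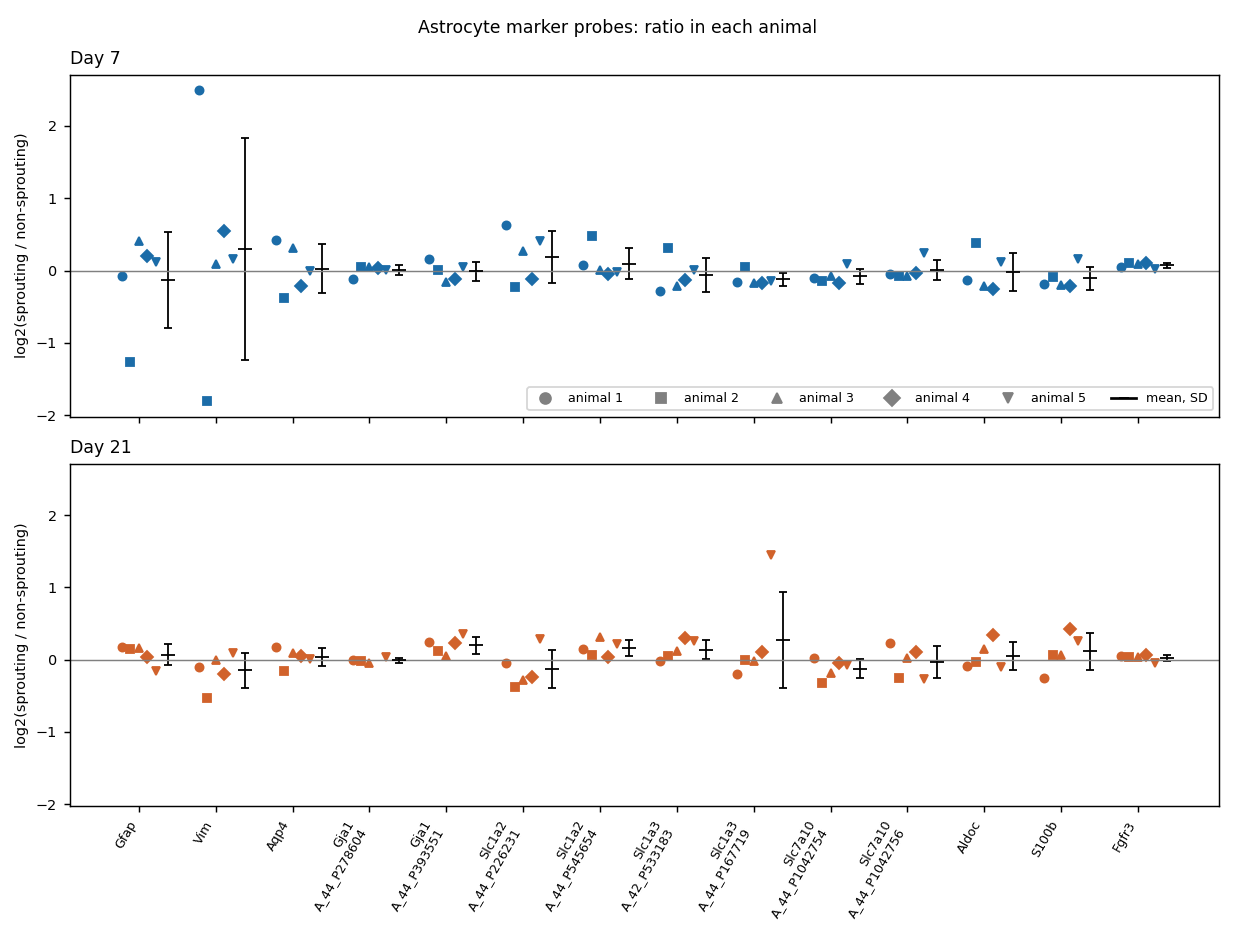
Ratio of sprouting over non-sprouting signal (log2, vertical axis) of the 14 member probes, day 7 above and day 21 below; each symbol is 1 animal and the bar at the right of each probe is the mean with its SD. Most points lie within 0.5 of 0, and the exceptions are Vim in day 7 animals 1 and 2 and animal 4, Gfap in day 7 animal 2, Slc1a2 in day 7 animal 1, Slc1a3 in day 21 animal 5 and Vim in day 21 animal 2.

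Gfap and vimentin, the intermediate filaments of astrocytes, gave the widest ratios of the members on day 7, and these went in opposite directions in different animals. For Vim the day 7 ratios of animals 1 to 5 were 2.50, -1.81, 0.088, 0.54 and 0.16. Vim thus stood far higher in the sprouting pool of animal 1 and far higher in the non-sprouting pool of animal 2, and the mean of 0.29 ± 1.53 (SD, n = 5) was smaller than its spread (limma adjusted p = 0.938). Both arrays showed it: 2.76 and 2.23 on the forward and dye-swap arrays of animal 1, and -1.59 and -2.03 on those of animal 2. The mean turned to -0.26 without animal 1 and rose to 0.82 without animal 2. As levels, Vim in sprouting neurons on day 7 was 11.11, 9.12, 7.69, 7.91 and 7.40 in animals 1 to 5. In non-sprouting neurons it was 8.62, 10.92, 7.60, 7.37 and 7.24. One pool each of animals 1 and 2 was therefore near 11, and the remaining pools of the day were between 7.24 and 9.12. On day 21 the Vim ratios were -0.095, -0.53, -0.011, -0.20 and 0.094, a mean of -0.15 ± 0.24 (SD, n = 5), with 1 animal above 0 and the lowest value in animal 2. The forward arrays alone had 1 of 5 above 0 and the dye-swap arrays 3 of 5. In animals 3 and 4 the sprouting reading of Vim on the dye-swap array was not well above background. Animal 4 gave -0.52 on the forward and 0.12 on the dye-swap array.

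For Gfap the day 7 ratios were -0.081, -1.27, 0.41, 0.20 and 0.12, with a mean of -0.13 ± 0.66 (SD, n = 5) and an adjusted p of 0.939 in limma. Animal 2 was again the low one, on both arrays (-1.15 forward and -1.40 dye-swap), and animal 1, the high one for Vim, was near 0. Without animal 2 the Gfap mean was 0.16. The Gfap level in non-sprouting neurons of day 7 animal 2 was 8.59, while the other 9 day 7 pools lay between 6.71 and 7.44. On day 21 the Gfap ratios were 0.17, 0.14, 0.16, 0.036 and -0.16, a mean of 0.072 ± 0.14 (SD, n = 5); 4 of 5 animals were above 0 and animal 5 was below. The forward arrays alone gave -0.0090 and the dye-swap arrays 0.15. In animals 2, 3 and 4 the Gfap reading of sprouting neurons on the dye-swap array was not well above background. Those dye-swap arrays gave 0.19, 0.38 and 0.30, and the forward arrays of the same animals 0.094, -0.047 and -0.23. Another probe, outside the rule because its symbol field does not read Gfap but described as glial fibrillary acidic protein, gave 0.38, -0.69, 0.16, 0.016 and -0.083 on day 7, again lowest in animal 2. On day 21 that probe gave -0.055, 0.087, 0.11, -0.31 and 0.15, a mean of -0.0018 ± 0.19 (SD, n = 5). Its signs in animals 1, 4 and 5 were opposite to those of the Gfap probe.

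Some of the other marker lists had median ratios away from 0 in day 7 animals 1 and 2, and others did not. In day 7 animal 2 the median ratio of 15 oligodendrocyte markers was -0.67, of 14 microglia and macrophage markers -0.20, of 22 reactive astrocyte genes -0.26, of 12 endothelial and mural markers -0.023 and of 7 blood cell markers 0.051. In animals 3 to 5 the oligodendrocyte markers stood at 0.27, 0.10 and 0.13 and the microglia and macrophage markers at 0.14, 0.17 and 0.11. The reactive astrocyte genes stood there at 0.026, 0.018 and -0.0019. The endothelial and mural markers were at -0.049, -0.11 and -0.043 and the blood cell markers at 0.064, 0.024 and 0.058. In day 7 animal 1 the same lists, in that order, stood at -0.076, 0.064, 0.11, 0.31 and 0.66. Single genes of the reactive and microglia lists were far above those medians in animal 1, the animal with the high Vim ratio. Chosen after their values were seen, Cd44 read 4.36, Timp1 4.01, Emp1 4.02, Cd14 2.98 and Lyz2, a lysozyme of macrophages and microglia, 4.21. Other genes of the same 2 lists went the other way in that animal. Among them Cxcl10 read -1.28, Cd74 -0.93, C3 -0.91, C1qa -0.46, C1qb -0.42 and Cx3cr1 -0.36. The summed intensity of the 14 microglia and macrophage markers ran from 10520 to 53572 over the day 7 sprouting pools and from 9013 to 34743 over the non-sprouting ones. No gene of these lists was undetected in all 40 readings. Their part in the Vim and Gfap values was not tested.

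**Figure D2:**
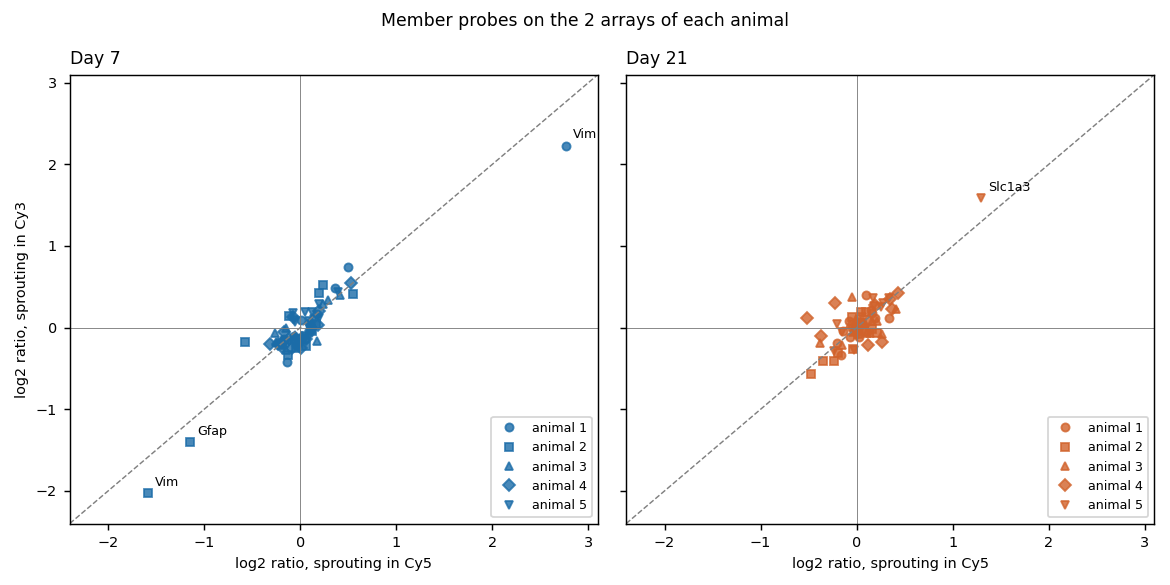
Ratio of each member probe on the forward array of an animal (horizontal axis, sprouting in Cy5) against the dye-swap array (vertical axis, sprouting in Cy3), log2 on both axes and turned so that positive values mean higher in sprouting neurons; the dashed line marks equal values and genes beyond 0.9 are named. The Vim points of day 7 animals 1 and 2, the Gfap point of animal 2 and the Slc1a3 point of day 21 animal 5 lie near the line.

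Aqp4, the water channel of astrocyte endfeet, had day 7 ratios of 0.42, -0.38, 0.31, -0.22 and -0.0015 in animals 1 to 5, on both sides of 0 (mean 0.028 ± 0.34, SD, n = 5). On day 21 they were 0.18, -0.15, 0.092, 0.047 and 0.015, 4 of 5 above 0 and all small (mean 0.036 ± 0.12, SD, n = 5, limma adjusted p = 0.981). Its level varied more between animals than between the cell types of an animal: day 21 sprouting neurons gave 6.72, 6.83, 6.78, 8.12 and 8.81 and the paired non-sprouting neurons 6.54, 6.98, 6.69, 8.07 and 8.80. The 8.12 of sprouting neurons in animal 4 averages 6.91 on the forward array, like animals 1 to 3, with 9.32 on the dye-swap array that stood apart, where it was not well above background. In animal 5 the forward reading of 8.17 was not well above background either, while the dye-swap reading of 9.46 was.

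Gja1 encodes the main gap-junction connexin of astrocytes, and its probe A_44_P393551 had the smallest unadjusted p of all member ratios. Its day 21 ratios were 0.25, 0.12, 0.053, 0.23 and 0.35, above 0 in 5 of 5 animals. The mean was 0.20 ± 0.12 (SD, n = 5), a 1.15-fold higher signal in sprouting neurons, and it missed the threshold (limma adjusted p = 0.917, at the least 0.150 over the alternatives). Forward arrays gave 0.13 and dye-swap arrays 0.27. On day 7 the same probe lay on both sides of 0, with 0.17, 0.0077, -0.17, -0.11 and 0.049 (mean -0.011 ± 0.13, SD, n = 5), and the difference between the days was 0.21 (SE 0.078) with an adjusted p of 0.921 in limma. The other Gja1 probe, A_44_P278604, was close to background. It ran from -0.12 to 0.050 on day 7 and from -0.048 to 0.034 in the 4 day 21 animals with a value, animal 4 having none. With the ratios of the authors' deposited table, in which outlier spots were not set missing here, its day 21 mean was -0.26. That stands against -0.0085 here over the 4 animals left after outlier spots were set missing, so the sets of values differ too. The Gja1 probes had the same sign in 4 of 9 animals.

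Slc1a2, the main glutamate transporter of cortical astrocytes, had a pair of probes that disagreed on day 21. A_44_P545654 gave 0.15, 0.069, 0.32, 0.043 and 0.22, above 0 in 5 of 5 animals, with a mean of 0.16 ± 0.11 (SD, n = 5) and an adjusted p of 0.917 in limma. Its forward arrays gave 0.24, above 0 in 5 of 5 animals, and its dye-swap arrays 0.080, above 0 in 3. The dye-swap ratio was -0.022 in animal 2 and -0.18 in animal 4, where the sprouting reading was not well above background. Over both days its forward and dye-swap ratios had the same sign in 5 of 10 animals. A_44_P226231 gave -0.043, -0.38, -0.29, -0.24 and 0.29, above 0 in 1 of 5, with a mean of -0.13 ± 0.27 (SD, n = 5). It was detected in 36 of 40 readings, against 39 for A_44_P545654. In animals 2, 3 and 4 its sprouting reading on the dye-swap array was not well above background. The forward arrays of those animals gave -0.35, -0.38 and -0.37. Over both days the Slc1a2 probes shared a sign in 4 of 10 animals. On day 7 A_44_P226231 ran from -0.23 to 0.62 (mean 0.19 ± 0.36, SD, n = 5). A_44_P545654 gave 0.074, 0.48, 0.0056, -0.054 and -0.024 on that day, with animal 2 above the rest.

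Slc1a3, the other astrocyte glutamate transporter, was detected in every reading with both of its probes. A_42_P533183 gave day 7 ratios of -0.28, 0.31, -0.21, -0.13 and 0.0099 and day 21 ratios of -0.022, 0.056, 0.12, 0.30 and 0.26, with 2 and 4 of 5 animals above 0. The means were -0.059 ± 0.23 (SD, n = 5) and 0.14 ± 0.13 (SD, n = 5). A_44_P167719 gave -0.16, 0.043, -0.17, -0.18 and -0.15 on day 7 and -0.19, -0.0012, -0.012, 0.10 and 1.44 on day 21. Its animal 5 on day 21 stood alone, at 1.30 on the forward and 1.59 on the dye-swap array, where the other probe, which carries the same transcript accession, read 0.26 and 0.26. The level behind it was 9.63 in the non-sprouting neurons of that animal, against 11.18 to 11.70 in the other 4. Without animal 5 the day 21 mean of A_44_P167719 went from 0.27 to -0.026.

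Slc7a10 exchanges small neutral amino acids such as serine and glycine, and its 2 probes shared a sign in 8 of 10 animals. A_44_P1042754 was below 0 in 4 of 5 animals on each day, with -0.10, -0.15, -0.072, -0.17 and 0.085 on day 7 and 0.025, -0.33, -0.18, -0.048 and -0.078 on day 21. In day 21 animal 4 the forward array gave 0.11 and the dye-swap array -0.21, where the sprouting reading was not well above background. In animal 5 they gave -0.20 and 0.046. The day 21 mean was -0.12 ± 0.14 (SD, n = 5), with an adjusted p of 0.917 in limma. A_44_P1042756 gave -0.046, -0.075, -0.077, -0.035 and 0.25 on day 7, where animal 5 was the high one, and 0.23, -0.25, 0.018, 0.10 and -0.26 on day 21.

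Aldoc, the brain form of the glycolytic enzyme aldolase, gave ratios of -0.13, 0.38, -0.22, -0.26 and 0.12 on day 7 and -0.092, -0.033, 0.15, 0.35 and -0.10 on day 21, with 2 of 5 animals above 0 on each day. Its means were -0.020 ± 0.27 (SD, n = 5) and 0.054 ± 0.19 (SD, n = 5). S100b, a calcium-binding protein of astrocytes, was above 0 in 1 animal on day 7 (-0.19, -0.087, -0.21, -0.21 and 0.16) and in 4 on day 21 (-0.25, 0.070, 0.060, 0.43 and 0.26). The difference between its days was 0.22 (SE 0.12), with an adjusted p of 0.921 in limma, and -0.22 within the 1 scan batch that holds both days.

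Fgfr3, a receptor for fibroblast growth factors on astrocytes and their precursors, had the tightest ratios of the single-probe members. Its day 7 ratios were 0.053, 0.10, 0.090, 0.11 and 0.027, above 0 in 5 of 5 animals, with a mean of 0.075 ± 0.034 (SD, n = 5) and an adjusted p of 0.811 in limma. The forward arrays gave 0.12 and the dye-swap arrays 0.032. On day 21 it gave 0.047, 0.038, 0.032, 0.059 and -0.050, with animal 5 the low one. Its levels were 6.91 ± 0.051 in sprouting and 6.83 ± 0.076 in non-sprouting neurons on day 7 (mean ± SD, n = 5), a narrow span in a probe that was detected in 32 of 40 readings. On the forward arrays of day 7 animals 2, 3 and 4 its non-sprouting reading was not well above background. Without background correction the day 7 mean was 0.039, and with the scanner software's own ratios 0.027. The latter put the day 21 mean at -0.039, against 0.025 in the main fit.

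Levels were next set between the days, day 21 minus day 7, within each cell type. The mean level was lower on day 21 for 11 of 14 member probes in sprouting and for 11 in non-sprouting neurons, with median differences of -0.20 and -0.32 against -0.060 and -0.059 over all tested probes. Of all tested probes, 59.0% and 58.5% were below 0. None of the members passed limma's adjusted threshold (background 0% in both cell types). At an unadjusted p under 0.05 there were 3 member probes in sprouting neurons (Vim and 1 each of Slc1a2 and Slc7a10, background 14.7%) and 5 in non-sprouting neurons (Aldoc, S100b and 1 each of Gja1, Slc1a3 and Slc7a10, background 15.4%). No member's animals separated by day without overlap, against a background of 4.6% in sprouting and 5.63% in non-sprouting neurons. Median scaling of the channels gave member medians of -0.42 and -0.59, with -0.15 and -0.16 over all tested probes.

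The lowest adjusted p of a member between the days was that of Gja1 A_44_P393551 in non-sprouting neurons. Its level there was 12.71, 12.94, 12.87, 12.90 and 12.63 on day 7 and 12.66, 12.49, 12.23, 12.29 and 12.46 on day 21, a difference of -0.38 (SE 0.11) with an adjusted p of 0.175 in limma. The days overlapped by the highest day 21 animal alone. In the sprouting neurons of the same animals the difference was -0.17 (SE 0.13). Vim had the largest difference in sprouting neurons, -1.47 (SE 0.63), which came to -0.16 without the 2 widest animals of each day. For Slc1a2 A_44_P545654 the day 21 levels in sprouting neurons were 9.27, 9.41, 9.56, 8.64 and 7.72, against 9.29 to 9.87 on day 7. Animal 5 was low on both arrays (7.92 and 7.53), while animal 4 read 9.47 on the forward array, within the day 7 range, and 7.82 on the dye-swap array, not well above background. S100b gave day 21 levels of 8.60, 8.53, 8.87, 8.16 and 7.75 in sprouting and 8.85, 8.46, 8.81, 7.73 and 7.49 in non-sprouting neurons. Its sprouting neurons in animal 4 read 8.63 on the forward array, like animals 1 to 3, and 7.69 on the dye-swap array, not well above background. For Aqp4 the differences between the days were 0.57 (SE 0.42) in sprouting and 0.56 (SE 0.46) in non-sprouting neurons, and 0.23 and 0.22 without day 21 animal 5.

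The day comparison crosses scan batches, which the headers separate into 5 groups of arrays. One batch held 2 animals of day 7 and 1 of day 21. Within it the members' median difference was -0.020 in sprouting neurons (8 of 14 below 0) and -0.025 in non-sprouting neurons (11 of 14 below 0). A fit with scan batch as a fixed block rests on these animals for the day difference and gives the same estimates. It called 0 probes in each cell type and left 425 at an unadjusted p under 0.05 in sprouting and 447 in non-sprouting neurons, where the fit without the block had 5041 and 5284. For Gja1 A_44_P393551 in non-sprouting neurons the value within that batch was -0.11, and for Vim in sprouting neurons it was -0.28. Levels of other marker lists differed between the days too. The median level difference was -0.72 in sprouting and -0.53 in non-sprouting neurons for 14 microglia and macrophage markers, -0.10 and -0.21 for 15 oligodendrocyte markers, and -0.33 and -0.22 for 12 endothelial and mural markers. For 35 other astrocyte markers, counted below, it was -0.17 and -0.28, and for 22 reactive astrocyte genes -0.29 and -0.26. For 7 blood cell markers it was -0.32 and -0.16, and for 20 neuron markers 0.0081 and 0.057. The part of these lists and of the scan batches in the members' values was not tested.

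**Figure D3:**
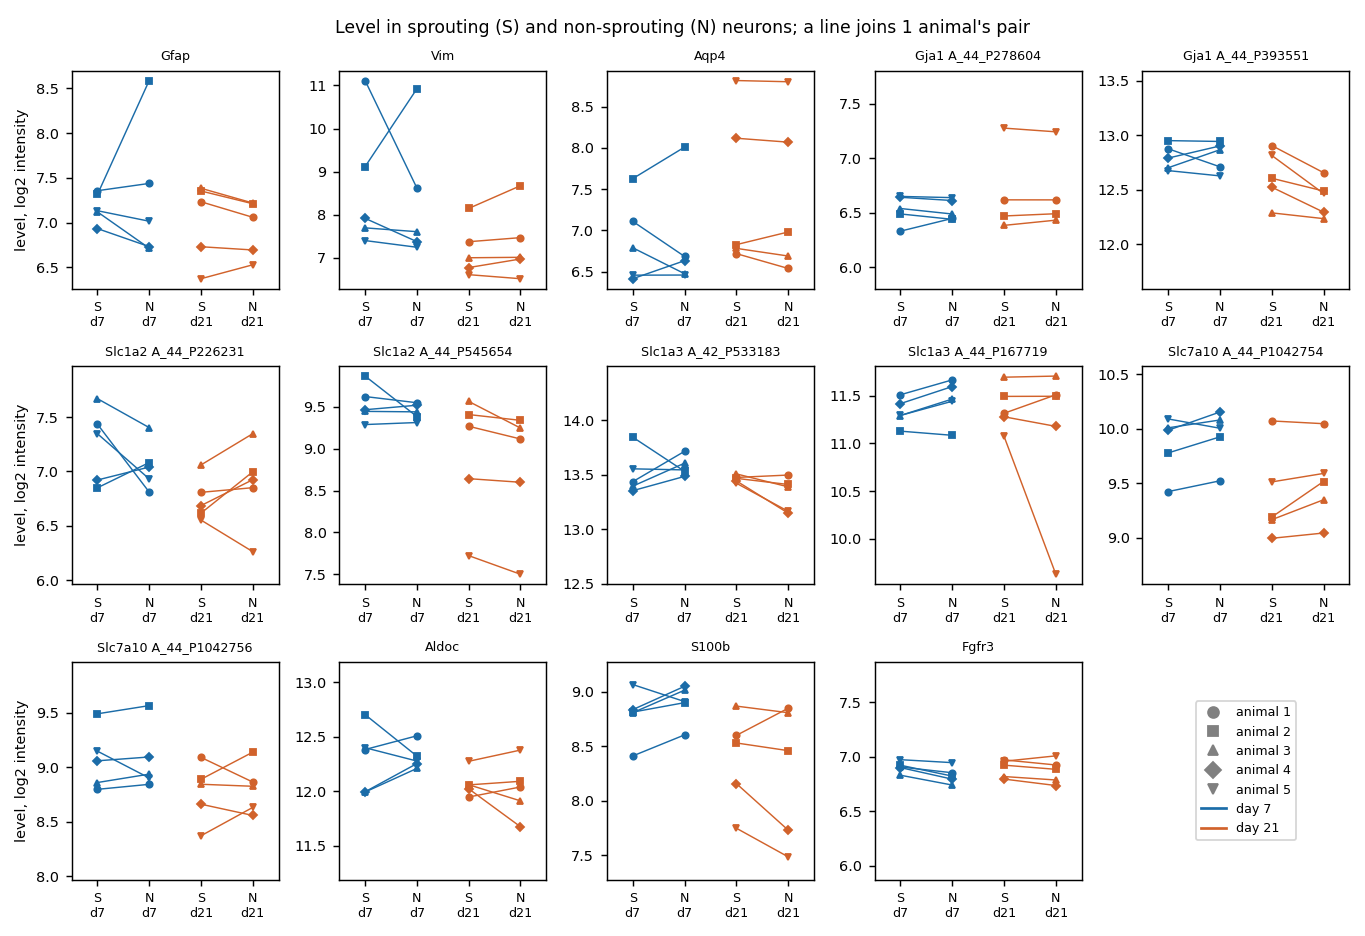
Level (log2 intensity after normalization, vertical axis, own scale per panel) of each member probe in sprouting (S) and non-sprouting (N) neurons on day 7 and day 21; a line joins the 2 pools of 1 animal. Gfap and Vim have single high pools on day 7, at 8.59 for Gfap and near 11 for Vim, and Slc1a2 A_44_P545654 and S100b have their lowest day 21 pools in animal 5; the day 21 values of animal 4 average a forward array with the dye-swap array that stood apart.

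The wider astrocyte lists were counted the same way, at 1 probe per gene. Of 40 other astrocyte markers 35 were tested, and 0 passed limma's adjusted threshold on either day. On day 7, 15 were above and 20 below 0 with a median of -0.018, and on day 21, 29 were above and 6 below with a median of 0.036. Over all tested probes 48.7% and 49.8% were above 0, with medians of -0.0021 and -0.00022. One gene of the 35 had 1 sign in all 5 animals on day 7 and 2 did on day 21, against 5.15% above and 5.99% below over all tested probes on day 7 and 2.87% and 3.39% on day 21. By that rule Atp1b2, a subunit of the sodium pump, was named on day 7 with ratios of -0.79, -0.39, -0.14, -0.36 and -0.072 (mean -0.35 ± 0.28, SD, n = 5). On day 21 the rule named Fabp7 and Hes5. Fabp7, a fatty acid binding protein of radial glia and astrocytes, gave 0.53, 0.35, 0.19, 0.80 and 0.78 on day 21 (mean 0.53 ± 0.27, SD, n = 5, limma adjusted p = 0.917). On day 7 its values were 0.26, -1.82, 0.23, 0.16 and 0.23, so that animal 2, low for Gfap and Vim, was low here too. Hes5, a target of Notch signalling, had a mean of 0.072 ± 0.073 (SD, n = 5) on day 21.

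Genes known to rise in reactive astrocytes were counted as well. Of 28 listed, 22 were tested and 0 passed the adjusted threshold in limma, with 10 above and 12 below 0 on day 7 and 16 above and 6 below on day 21. The medians were -0.0037 and 0.027. On day 7, 2 of the 22 had 1 sign in all 5 animals, both below 0 (5.99% of all tested probes), namely Cxcl10, a chemokine, at -1.28, -1.23, -0.27, -0.0032 and -0.17, detected in 21 of 40 readings, and Osmr, the oncostatin M receptor, at -0.12, -0.14, -0.10, -0.14 and -0.041. No gene of this list had 1 sign in all 5 animals on day 21. For comparison, 8 of 20 neuron markers were above 0 on each day, with medians of -0.027 and -0.082.

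**Figure D4:**
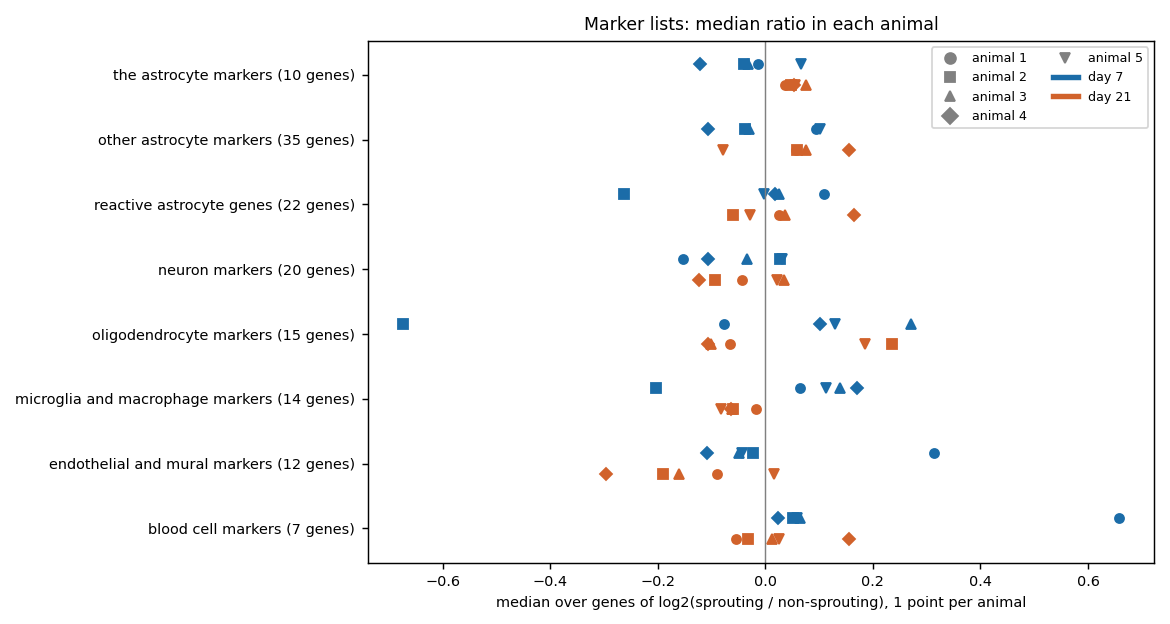
Median ratio (log2 of sprouting over non-sprouting, horizontal axis) of each marker list in each animal, day 7 in blue and day 21 in orange, 1 symbol per animal. The astrocyte markers at the top lie between -0.12 and 0.076 in all 10 animals, while the oligodendrocyte list lies at -0.67 in day 7 animal 2 and the blood list at 0.66 in day 7 animal 1.

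Each animal's median over the 14 member probes was -0.064, -0.034, -0.033, -0.12 and 0.067 on day 7 and 0.013, -0.011, 0.042, 0.059 and 0.064 on day 21, above 0 in 1 of 5 and in 4 of 5 animals, while the median over all tested probes lay between -0.020 and 0.011. At 1 probe per gene the day 21 medians were 0.036, 0.047, 0.076, 0.053 and 0.054, above 0 in 5 of 5. The genes whose ratios followed the members' median most closely over the 10 animals, among 13474 named genes with a value in each, were Ppp1r13b, Ints7, Mcpt9, Dennd2c, Rab9b, Tlx2, Tp53bp2, Efcab6, Prg2 and Rpusd1. Their Pearson r ran from 0.866 to 0.915. These are descriptions over 10 animals that share the arrays of the members, picked as the highest of many, and they carry no p-value.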

How the data were processed

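The members and the marker lists were chosen with earlier results of these data known. Spot and background intensities were deposited on a linear scale as written by Agilent Feature Extraction 9.1.3.1, per the file headers. In limma 3.58.1 (R 4.3.3, data.table in version 1.17.8) the signals were corrected by normexp with an offset of 50 and then by loess within each array, leaving the 2256 control spots out of the curve. Outlier spots were set missing and saturated ones kept, spots of 1 probe were averaged, and ratios were turned so that positive means higher in sprouting neurons. The forward and dye-swap arrays of an animal were averaged. Levels are single channels after loess and quantile normalization of the array averages, over both dyes.

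Each animal entered limma's linear model with 1 value, both days together, and eBayes p-values were adjusted by Benjamini-Hochberg over 34231 of 41012 probes. A probe was kept where both arrays of 3 or more animals of a day had it well above background in the channel of the same cell type. The day comparison is between separate cohorts. The smallest two-sided p of an exact sign permutation with 5 animals is 0.0625. As alternatives served the log10 ratio of the deposited scanner output, which carries Feature Extraction's own dye correction per the file headers, and the log2 ratios deposited by the authors, for which the sources used here give no normalization, and whose columns had medians of 0.0034 to 0.015. Those values tracked the loess ratios of each own array at r = 0.892 to 1.00 with slopes of 0.86 to 1.68, so their scale is not fixed, and their centring stays unknown. In the same file 20 further columns were not used. All 14 member probes are named in the text. From the other astrocyte and reactive lists, genes with 1 sign in all 5 animals of a day were named, up to 4 a list, and the 10 genes most like the members' median by Pearson r. A RefSeq table of GRCr8 gave names to 10658 probes by accession, to 4587 by symbol and to 3877 by synonym, and 21890 had none. The array names no build, so no probe position is given, and the promoter positions are those of GRCr8.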

Additional observations from a re-analysis of the deposited data

Results flagged for a closer look

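Among 84 groups of 4 or 5 animals over the member probes' ratios and levels, 8 had 1 animal apart from the rest by Dixon's criterion (above 0.71 of the range for 5 animals). Chance alone marks about 1 in 20. Of the ratios, Slc1a3 A_44_P167719 read 1.44 in day 21 animal 5 against -0.19 to 0.10 in the others, and its non-sprouting level there was 9.63 against 11.18 to 11.70. The same probe read 0.043 in day 7 animal 2 against -0.18 to -0.15. Slc1a2 A_44_P545654 read 0.48 in day 7 animal 2 against -0.054 to 0.074. Slc7a10 A_44_P1042756 read 0.25 in day 7 animal 5 against -0.077 to -0.035. Gja1 A_44_P278604 read -0.12 in day 7 animal 1 against 0.011 to 0.050. Fgfr3 read -0.050 in day 21 animal 5 against 0.032 to 0.059. The non-sprouting level of Aqp4 was 8.01 in day 7 animal 2 against 6.46 to 6.68 in the others.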

How the results depend on the processing

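No member probe passed limma's adjusted threshold under any alternative run, and the smallest adjusted p of a member was 0.087, for a non-sprouting level. Signs of the members' mean ratios changed in 25 of 193 probe-by-alternative values on day 7, 12 of 193 on day 21 and 19 of 291 for the difference between days, and those of the level differences in 26 of 291 in sprouting and 10 of 291 in non-sprouting neurons. Over all probes, without background correction 1 was called on day 7 (0 as reported), and leaving out each animal gave 0 to 1 calls on day 7. Leaving out single animals gave 0 to 10 calls for the sprouting level and 0 to 322 for the non-sprouting level, the highest without day 21 animal 1. With the 4 animals of widest spread left out, an alternative added after seeing the data, 1 probe was called for the day difference, 7 for the sprouting and 33 for the non-sprouting level, and the member median on day 21 was 0.0031. The cause was not tested. With scan batch as a fixed block 0 probes were called for the day difference and both levels, with 384, 425 and 447 at an unadjusted p under 0.05 against 1414, 5041 and 5284 without it. With the replicate block 0 probes were called for the day difference and both levels, as without it. Same-numbered animals of the days correlated at -0.18 to 0.045. Animals within a day hardly correlated either, so these values cannot show whether the numbers pair animals. With 5 animals a day, the low signal of Aqp4, Fgfr3 and 1 Gja1 probe limits what their ratios can show. Undetected sprouting readings on day 21 dye-swap arrays limit the ratios of Gfap, Vim and both Slc1a2 probes as well. In animal 4 this also holds for S100b and Slc7a10 A_44_P1042754.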
